A study of Homo sapiens with 6 samples.

Results

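Ribosome biogenesis genes encode the nucleolar machinery that transcribes, modifies, cuts and assembles ribosomal RNA. A set of 54 such genes was chosen by name, and each of the 54 was found in 1 row of both deposited gene tables, which together list 26286 genes. RNA was sequenced from HT-1080, a human fibrosarcoma cell line, after 48 h in 2 µM palbociclib, in 500 nM pimasertib, or in DMSO, the vehicle. Each of the 3 groups had 2 libraries. Palbociclib inhibits the cyclin-dependent kinases CDK4 and CDK6, which drive entry into S phase, and pimasertib inhibits MEK, the kinase that activates ERK. All groups were the same unmodified line, grown in serum-containing medium with nonessential amino acids. The labels do not say whether the 2 libraries of a group came from separate cultures, so the p-values below measure only the spread between these libraries.

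Ribosome production starts when RNA polymerase I copies the ribosomal DNA repeats into a long precursor RNA. Small nucleolar ribonucleoproteins (snoRNPs) modify this precursor, a large assembly on its 5′ end called the small subunit processome folds and cuts the small subunit part, and other factors mature the large subunit. Growing tumour cells spend much of their energy on these steps, and both MYC and ERK signalling are known to raise them.

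The libraries held 13607490 and 17500655 counts in palbociclib, 17007644 and 15673202 in pimasertib, and 16753274 and 15051223 in DMSO. All 54 genes were among the 14839 that passed the filter on low counts, and the lowest count of a member in any library was 61, for PPAN. In FPKM (fragments scaled by gene length and library total, the authors' values), the median member had a DMSO level of 35.9 FPKM, against 5.68 FPKM for the median tested gene. NPM1, the histone and ribosome chaperone nucleophosmin, had the highest DMSO level at 749 FPKM, followed by NCL, the RNA-binding protein nucleolin, at 342 FPKM. The lowest were PPAN, a large subunit factor, at 2.26 FPKM, and DDX10, a helicase of the processome, at 6.13 FPKM. Markers of mesenchymal origin such as VIM and FN1 were present, and 7 of the 8 listed passed the filter on low counts. In pimasertib their log2 fold changes over DMSO ran from −1.86 for CD44 to 2.77 for SPARC. Leukocyte markers summed to at most 0.633 CPM (counts scaled to library size), and the epithelial markers EPCAM and CDH1 reached at most 0.280 CPM. Of the other epithelial markers, KRT8 had 252 and 345 CPM in palbociclib, 553 and 335 CPM in pimasertib, and 201 and 192 CPM in DMSO. KRT18 had 123 and 107 CPM in palbociclib, 71.5 and 57.3 CPM in pimasertib, and 148 and 115 CPM in DMSO, and CLDN4 at most 3.37 CPM. In pimasertib KRT8 rose and KRT18 fell, and their part in the results was not tested. Another gene with at least 1000 counts overlaps 14 of the 54, mostly on the opposite strand. No source used here says if counting took account of strand, so such a pair may share reads.

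The 54 genes took 0.889% and 0.712% of all counts in palbociclib, 0.618% and 0.492% in pimasertib, and 1.05% and 0.794% in DMSO. Both pimasertib libraries were below both DMSO libraries, whereas palbociclib replicate 1 lay between the DMSO libraries. In every group replicate 2 was the lower. Counts are shares of a library, so the amount of RNA per cell was not measured, and fewer cells that express a gene cannot be told apart from less of its RNA per cell.

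Replicate 2 also held more reads from the mitochondrial genome. These made up 4.57% and 6.31% of counts in palbociclib, 4.25% and 8.76% in pimasertib, and 3.21% and 5.67% in DMSO. Over the 54 genes, the median log2 difference of replicate 2 minus replicate 1 was −0.34 in palbociclib, −0.25 in pimasertib and −0.40 in DMSO, against 0.02, −0.01 and −0.03 over all tested genes. Its part in the results below was not tested. With the mitochondrial reads taken out of the totals, the members' share was 0.931% and 0.760% in palbociclib, 0.646% and 0.539% in pimasertib, and 1.08% and 0.842% in DMSO, in the same order.

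In pimasertib members of every role group except RNA polymerase I transcription were called lower, led by LYAR, BOP1, FBL, EBNA1BP2 and RRP9. In edgeR's quasi-likelihood test with Benjamini-Hochberg adjustment over 14839 genes, 27 of the 54 members were called lower than in DMSO at an adjusted threshold of 0.05, and 0 were called higher. Over all tested genes, 22.8% were called, 11.7% lower and 11.1% higher. The median log2 fold change of the members was −0.71, against 0.0047 over all tested genes, and the values ran from −1.81 for LYAR to −0.02 for DCAF13. All 54 were below 0, as were 49.7% of all tested genes, but not under each alternative. DCAF13 was just above 0 with RLE factors (0.0044), library totals only (0.0138), DESeq2 (0.0045), no filter (0.0193), a stricter filter (0.0298) or the 4 libraries alone (0.0198), and up to 0.1687 with a library left out. RRN3 reached 0.0547 without DMSO replicate 1 and PPAN 0.2125 without pimasertib replicate 1. Both pimasertib libraries lay below both DMSO libraries for 51 of 54 members (32.6% of all tested genes), and the groups overlapped for RRN3, DCAF13 and PPAN. For 8 members the call came with a level at least 2-fold lower, which 7.06% of tested genes also showed. The test of DESeq2 called 28 members lower and 0 higher, and the authors' deposited table called 27 lower, of which 26 were the same genes.

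In palbociclib the members' fold changes were nearer 0, and no single gene passed with group as the only term of the model. Of the 54 members, 0 were called in either direction by edgeR's quasi-likelihood test, by DESeq2 or in the authors' deposited table. In edgeR 8 members had an unadjusted p under 0.05, as did 2668 of the 14839 tested genes, which is a larger share. Of all tested genes, 3.54% were called, 1.11% higher and 2.44% lower. The 8 were LYAR, DKC1, NOP56, NOC4L, UTP20, MRTO4, BYSL and GAR1, each with both palbociclib libraries below both DMSO libraries. The members' median log2 fold change was −0.25, against 0.0049 over all tested genes, with 41 members below 0 (49.6% of all tested genes) and 13 above it. All libraries were lower than DMSO for 22 members (23.3% of all tested genes), all were higher for POLR1C, DCAF13 and PPAN (23.5%), and the other 29 overlapped.

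**Figure D1:**
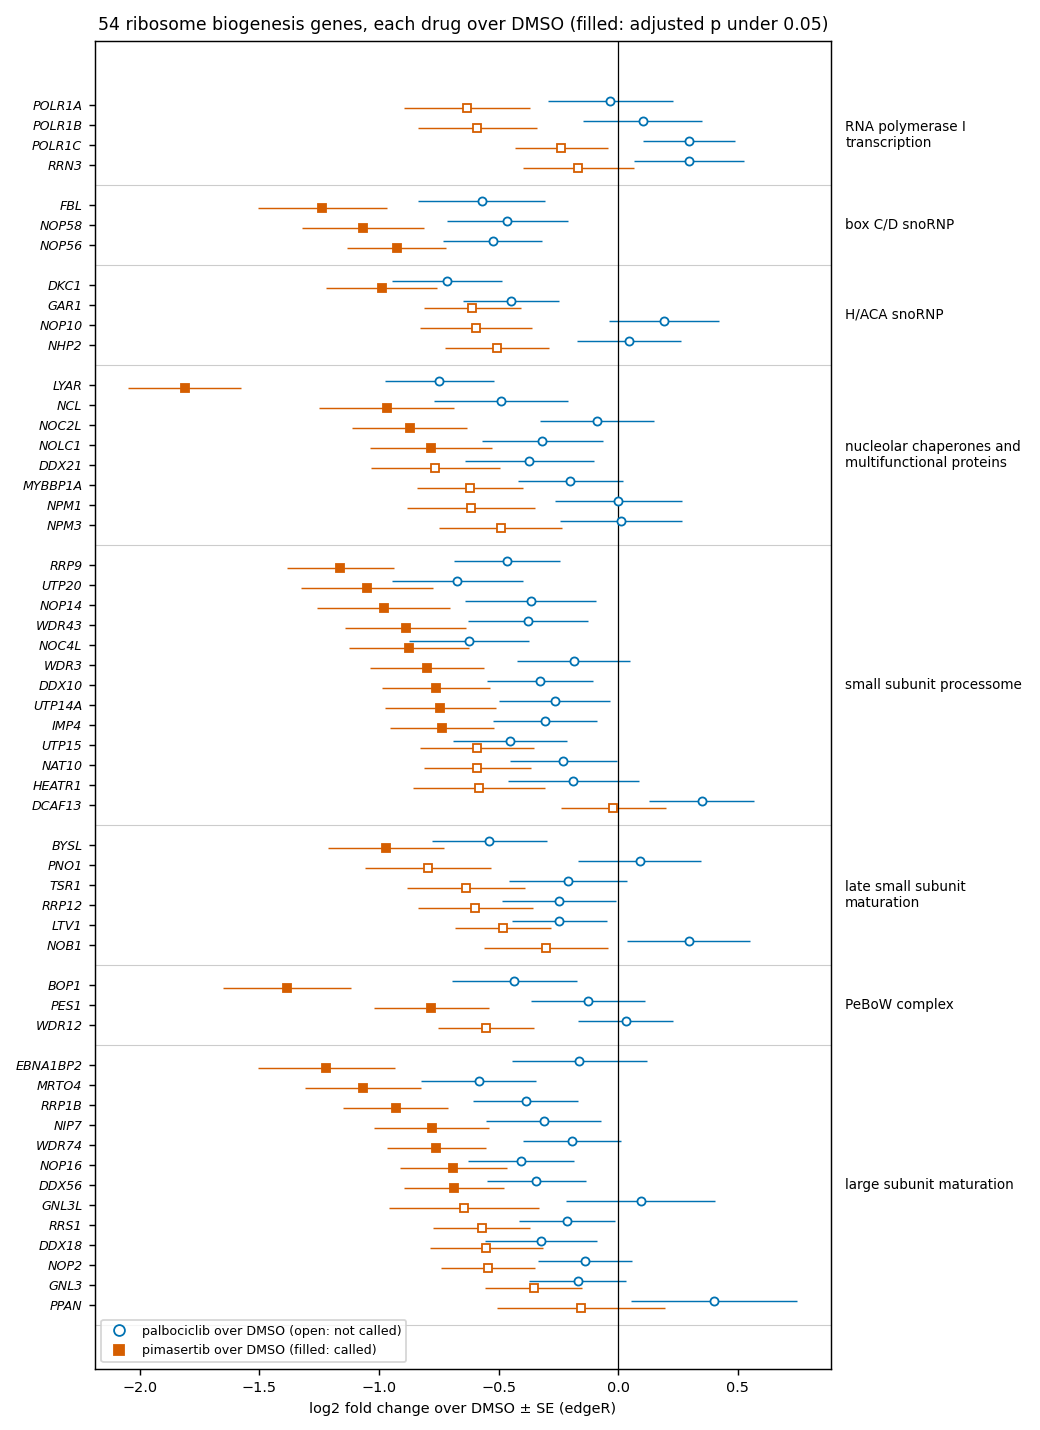
Log2 fold change over DMSO with its SE for each of the 54 genes (rows, grouped by role), for palbociclib (blue circles) and pimasertib (orange squares); filled symbols passed the adjusted threshold. The pimasertib values lie between −1.81 and −0.02 with 27 filled, and the palbociclib values between −0.75 and 0.40 with none filled.

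The 4 members of RNA polymerase I transcription showed no called change in either drug. Over all tested genes, 22.8% were called in pimasertib and 3.54% in palbociclib. POLR1A, the largest subunit of the enzyme, had 245 and 177 CPM in palbociclib, 141 and 138 CPM in pimasertib, and 260 and 173 CPM in DMSO. POLR1B, the second subunit of its catalytic core, had 171 and 128 CPM in palbociclib, 102 and 83.0 CPM in pimasertib, and 161 and 117 CPM in DMSO. For both genes the pimasertib libraries were the lowest of the 6, but the adjusted p against DMSO was 0.108 for POLR1A and 0.115 for POLR1B. POLR1C, a subunit shared with RNA polymerase III, had 47.8 and 43.8 CPM in palbociclib, 33.8 and 29.4 CPM in pimasertib, and 37.8 and 36.9 CPM in DMSO. Its palbociclib libraries were above, and its pimasertib libraries below, both DMSO libraries, with a log2 fold change of 0.30 in palbociclib (SE 0.19, adjusted p = 0.469) and −0.24 in pimasertib (adjusted p = 0.404). POLR1C overlaps XPO5 and YIPF3, which have more counts, on the opposite strand, so its counts are uncertain. RRN3, which recruits the polymerase to the ribosomal DNA promoter, had 80.7 and 69.1 CPM in palbociclib, 61.8 and 46.9 CPM in pimasertib, and 69.8 and 52.2 CPM in DMSO, and each drug overlapped DMSO. Reads of RRN3 may be shared with PDXDC1 on the opposite strand and with the pseudogene RRN3P3. Of these 4 genes, 2 had an unadjusted p under 0.05 in pimasertib and 0 in palbociclib, and DESeq2 called 0 of them in pimasertib and 0 in palbociclib.

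The 3 members that are core proteins of the box C/D snoRNPs, which guide 2′-O-methylation of ribosomal RNA, fell in pimasertib. All 3 were called lower, against 11.7% of all tested genes. The methyltransferase FBL (fibrillarin) had 158 and 111 CPM in palbociclib, 89.9 and 79.1 CPM in pimasertib, and 239 and 159 CPM in DMSO. Its log2 fold change in pimasertib was −1.24 (SE 0.27, adjusted p = 0.00923). NOP58, a scaffold of the particle, had 156 and 111 CPM in palbociclib, 97.4 and 78.0 CPM in pimasertib, and 210 and 158 CPM in DMSO. The pimasertib libraries were the lowest for both genes, and the groups did not overlap. The log2 fold change of NOP58 in pimasertib was −1.07 (SE 0.25, adjusted p = 0.0141). NOP56, the partner scaffold, had 164 and 158 CPM in palbociclib, 114 and 129 CPM in pimasertib, and 237 and 226 CPM in DMSO, with a log2 fold change of −0.93 in pimasertib (SE 0.21, adjusted p = 0.0106). In palbociclib all 3 also lay wholly below DMSO, with log2 fold changes of −0.46 to −0.57, without passing the test.

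Of the 4 core proteins of the H/ACA snoRNPs, which guide the change of uridine to pseudouridine, 1 was called lower in pimasertib. The share was 25%, against 11.7% of all tested genes. DKC1 (dyskerin), the pseudouridine synthase itself, had 101 and 76.9 CPM in palbociclib, 79.5 and 67.6 CPM in pimasertib, and 163 and 129 CPM in DMSO. Both drugs lay wholly below DMSO and overlapped each other, with a log2 fold change of −0.72 in palbociclib (SE 0.23, adjusted p = 0.13) and −0.99 in pimasertib (SE 0.23, adjusted p = 0.0129). The other proteins of the particle, NHP2, GAR1 and NOP10, had log2 fold changes of −0.51 to −0.61 in pimasertib and were not called. Their pimasertib libraries also lay wholly below DMSO, as did those of 32.6% of all tested genes. GAR1 was among the members closest to the threshold, with an adjusted p of 0.0527.

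LYAR had the largest change of the 54 in pimasertib. This zinc-finger nucleolar protein, known to act in ribosomal RNA processing, is encoded on the minus strand at chr4:4269428-4291896 (GRCh37, ENSG00000145220). It had 64.5 and 49.5 CPM in palbociclib, 27.4 and 27.1 CPM in pimasertib, and 111 and 80.5 CPM in DMSO, which gives means of 57.0 ± 10.6 CPM in palbociclib, 27.2 ± 0.241 CPM in pimasertib and 95.7 ± 21.4 CPM in DMSO (SD, n = 2 each). The 3 groups were fully separate, with DMSO highest and pimasertib lowest. The pimasertib level was 3.51-fold lower than in DMSO (log2 fold change −1.81, SE 0.23, adjusted p = 5.81e-04), and the palbociclib value was −0.75 (SE 0.23, adjusted p = 0.113).

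Other nucleolar proteins had smaller fold changes. NCL, which binds the precursor RNA, had 1115 and 884 CPM in palbociclib, 822 and 614 CPM in pimasertib, and 1655 and 1154 CPM in DMSO. NOC2L, a histone acetyltransferase inhibitor found in nucleolar complexes, had 451 and 375 CPM in palbociclib, 257 and 223 CPM in pimasertib, and 496 and 382 CPM in DMSO. Both fell in pimasertib, with log2 fold changes of −0.97 for NCL (SE 0.28, adjusted p = 0.0322) and −0.87 for NOC2L (SE 0.24, adjusted p = 0.0261), whereas in palbociclib NCL lay below DMSO and NOC2L overlapped it. NOLC1, a chaperone of snoRNPs, passed narrowly with a log2 fold change of −0.78 (adjusted p = 0.0495). NPM1, the most abundant member, had 1506 and 1174 CPM in palbociclib, 1007 and 742 CPM in pimasertib, and 1480 and 1199 CPM in DMSO. Its palbociclib libraries overlapped those of DMSO and its pimasertib libraries lay below them, but it was not called in pimasertib (log2 fold change −0.62, SE 0.27, adjusted p = 0.125). A near copy of NPM1, the pseudogene NPM1P27, held 2612 counts over the 6 libraries, against 112636 for NPM1. NPM3, MYBBP1A and the helicase DDX21 were also lower in both pimasertib libraries than in DMSO without a call.

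The small subunit processome held 9 of the 27 lowered genes, out of 13 members (69.2%, against 11.7% of all tested genes). They were RRP9, UTP20, NOP14, WDR43, NOC4L, WDR3, DDX10, UTP14A and IMP4. RRP9, a protein specific to the U3 snoRNP that pairs with the precursor, had 40.4 and 31.6 CPM in palbociclib, 22.0 and 22.4 CPM in pimasertib, and 56.5 and 42.8 CPM in DMSO. Its groups were fully separate, in the order seen for LYAR, and its log2 fold change in pimasertib was −1.16 (SE 0.22, adjusted p = 0.00519). UTP20, a large repeat protein of the particle, had 95.6 and 68.9 CPM in palbociclib, 70.7 and 56.0 CPM in pimasertib, and 162 and 101 CPM in DMSO, with a log2 fold change of −1.05 in pimasertib (SE 0.28, adjusted p = 0.0215). NOP14, a processome subunit that works with NOC4L, had 96.0 and 64.3 CPM in palbociclib, 57.5 and 47.0 CPM in pimasertib, and 126 and 80.5 CPM in DMSO, with a log2 fold change of −0.98 in pimasertib (SE 0.28, adjusted p = 0.0288). For UTP20 both drugs lay below DMSO and overlapped each other, and for NOP14 palbociclib overlapped DMSO.

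The remaining 6 called processome genes had log2 fold changes of −0.74 to −0.89 in pimasertib. UTP15, HEATR1 and the RNA acetyltransferase NAT10 were not called, at −0.58 to −0.59. DCAF13 had the value nearest 0 in its group, with 120 and 98.1 CPM in palbociclib, 95.3 and 73.1 CPM in pimasertib, and 89.9 and 80.9 CPM in DMSO. Its palbociclib libraries were the highest, with a log2 fold change of 0.35 (SE 0.22, adjusted p = 0.448), and its pimasertib libraries spanned the DMSO range (−0.02, adjusted p = 0.955). DCAF13 overlaps SLC25A32 on the opposite strand.

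Of the 6 late factors of the small subunit, 1 was called lower in pimasertib (16.7%, against 11.7% of all tested genes). BYSL (bystin), which acts on the small subunit precursor before export, had 42.5 and 43.6 CPM in palbociclib, 37.7 and 26.0 CPM in pimasertib, and 72.4 and 52.8 CPM in DMSO. Both drugs lay wholly below DMSO, and the call was made in pimasertib (log2 fold change −0.97, SE 0.24, adjusted p = 0.0173) but not in palbociclib (−0.54, adjusted p = 0.273). The other 5 factors, LTV1, TSR1, RRP12, PNO1 and the nuclease NOB1, which makes the last cut in small subunit RNA, had log2 fold changes of −0.30 to −0.79 in pimasertib. PNO1, the partner of NOB1, was closest to the threshold of all members that missed it, with an adjusted p of 0.0523, but it overlaps PPP3R1, which has 9335 counts against its 1367.

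In the PeBoW complex, a trimer of PES1, BOP1 and WDR12 needed for large subunit RNA processing, BOP1 and PES1 fell in pimasertib. The share called lower was 66.7% of its members, against 11.7% of all tested genes. BOP1 had 75.5 and 48.3 CPM in palbociclib, 34.9 and 29.1 CPM in pimasertib, and 97.3 and 69.9 CPM in DMSO. Its pimasertib libraries were the lowest, 2.61-fold below DMSO on the fitted scale (log2 fold change −1.38, SE 0.27, adjusted p = 0.00517), while palbociclib overlapped DMSO. PES1 had 221 and 176 CPM in palbociclib, 139 and 114 CPM in pimasertib, and 247 and 187 CPM in DMSO, and again only the pimasertib libraries stood clear of DMSO (−0.78, SE 0.24, adjusted p = 0.0413). WDR12 was at −0.55 in pimasertib without a call (adjusted p = 0.0719).

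Of 13 other large subunit factors, 7 were called lower in pimasertib (53.8%, against 11.7% of all tested genes). They were EBNA1BP2, MRTO4, RRP1B, NIP7, WDR74, NOP16 and DDX56. EBNA1BP2, an assembly factor of early large subunit precursors on the minus strand at chr1:43629846-43736607 (GRCh37, ENSG00000117395), had 188 and 111 CPM in palbociclib, 80.5 and 63.0 CPM in pimasertib, and 190 and 144 CPM in DMSO. Palbociclib overlapped DMSO and pimasertib lay below both, with a log2 fold change of −1.22 (SE 0.29, adjusted p = 0.0132). MRTO4, which holds the place of the ribosomal stalk during assembly, had 86.0 and 69.5 CPM in palbociclib, 60.7 and 50.5 CPM in pimasertib, and 138 and 95.1 CPM in DMSO. RRP1B, a nucleolar partner of protein phosphatase 1, had 118 and 93.4 CPM in palbociclib, 76.0 and 69.1 CPM in pimasertib, and 153 and 123 CPM in DMSO. For MRTO4 and RRP1B the groups were fully separate, with log2 fold changes in pimasertib of −1.07 for MRTO4 (SE 0.24, adjusted p = 0.0112) and −0.93 for RRP1B (SE 0.22, adjusted p = 0.0139). MRTO4 overlaps the more highly counted EMC1 on the opposite strand, so its counts are uncertain.

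The other called large subunit factors had log2 fold changes of −0.69 to −0.78, and NOP16 passed narrowly with an adjusted p of 0.0488. NOP2, RRS1, DDX18, GNL3, GNL3L and PPAN were not called. PPAN, the lowest of the 54, had 7.69 and 6.93 CPM in palbociclib, 3.51 and 6.46 CPM in pimasertib, and 5.34 and 5.74 CPM in DMSO. Its 2 pimasertib libraries lay on either side of DMSO, and it shares its strand with the overlapping P2RY11, so its reads are uncertain too.

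**Figure D2:**
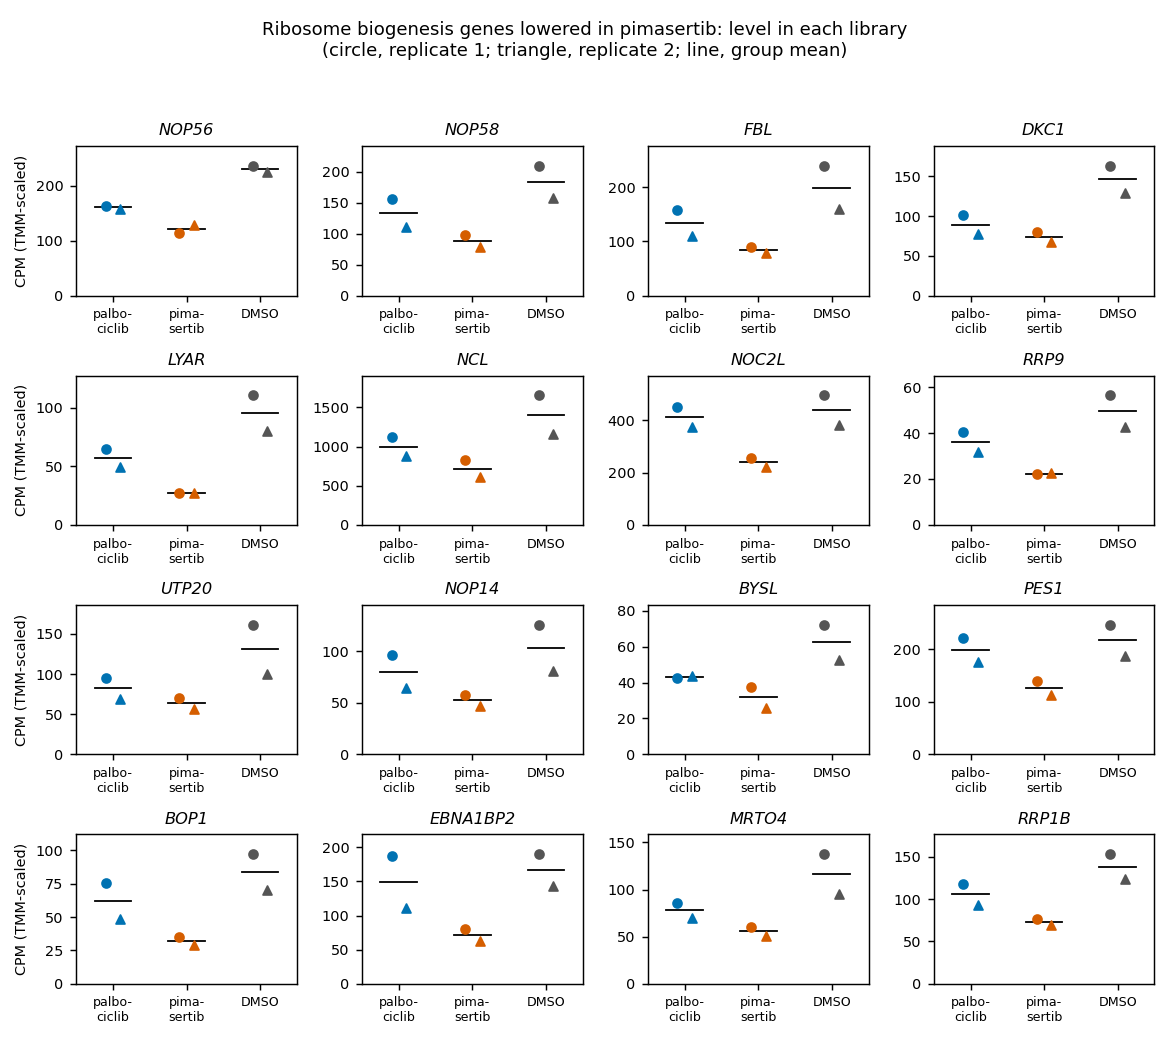
TMM-scaled CPM of 16 called members in each library (circle, replicate 1; triangle, replicate 2; line, group mean), with palbociclib, pimasertib and DMSO from left to right. In each panel both pimasertib points lie below both DMSO points, and palbociclib lies between them or overlaps one side; LYAR reads 64.5 and 49.5 CPM in palbociclib, 27.4 and 27.1 CPM in pimasertib, and 111 and 80.5 CPM in DMSO.

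How many members were called rested on single libraries. Leaving out pimasertib replicate 2 left 1 member lower (1.85%, against 3.14% of all tested genes), leaving out pimasertib replicate 1 left 4 (7.41%, against 5.06%), and leaving out DMSO replicate 1 left 6 (11.1%, against 6.23%). There were 36 called members without DMSO replicate 2 (66.7%, against 11.8%), 28 without palbociclib replicate 1 (51.9%, against 12.4%) and 24 without palbociclib replicate 2 (44.4%, against 10.7%). The members' median log2 fold change stayed between −0.53 and −0.89 in these 6 fits. LYAR was the only member called in all 6, and RRP9 and BOP1 were called in 5 of 6, with highest adjusted p-values of 0.0564 for RRP9 and 0.0771 for BOP1. The palbociclib median was −0.44 without DMSO replicate 2 and −0.42 without palbociclib replicate 1, but −0.09 without DMSO replicate 1 and −0.09 without palbociclib replicate 2. LYAR and UTP20 were called lower in palbociclib once DMSO replicate 2 was left out, which leaves 1 DMSO library. The share of members called lower in that fit was near that of all tested genes.

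Set directly against each other, palbociclib was above pimasertib for all 54 members in fitted log2 fold change, except that UTP15 was at −0.10 without pimasertib replicate 2. Of the 14839 tested genes, 7258 were above 0. The members' median was 0.48, against −0.02 over all tested genes, from 0.14 for UTP15 to 1.06 for LYAR. In plain log2 ratios, added after seeing the data, 2 members were lower in palbociclib within replicate number 1 and 0 within number 2. Both palbociclib libraries exceeded both pimasertib libraries for 46 members (27.6% of all tested genes), and 8 overlapped. In edgeR's quasi-likelihood test with Benjamini-Hochberg adjustment, 2 members were called higher in palbociclib (of all tested genes 9.39% were called, 4.31% higher and 5.07% lower), LYAR at 1.06 (SE 0.23, adjusted p = 0.0167) and EBNA1BP2 at 1.06 (SE 0.29, adjusted p = 0.044), and 0 were called lower. BOP1 came next, at 0.95 (SE 0.27, adjusted p = 0.0504), followed by the H/ACA protein NOP10 at 0.78 (adjusted p = 0.0629), PNO1 at 0.88 (adjusted p = 0.0631) and NOC2L at 0.78 (adjusted p = 0.0716). At an unadjusted p under 0.05 in edgeR there were 22 members, against 3669 of the 14839 tested genes. DESeq2 called 5 members higher (9.26%, against 5.89% of all genes).

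By role, the gap between the drugs was widest in PeBoW, with a median log2 fold change of 0.65 in palbociclib over pimasertib, and in box C/D proteins, at 0.60. RNA polymerase I genes came next at 0.57, and H/ACA proteins had the smallest median, 0.41. The role medians differed by less than the range within most roles, and no difference between roles was tested. Leaving out a library gave 0 called members without palbociclib replicate 1, without pimasertib replicate 1 or without pimasertib replicate 2, and 5 without palbociclib replicate 2 (9.26%, against 4.38% of all tested genes higher), 6 without DMSO replicate 1 (11.1%, against 5.34%) and 7 without DMSO replicate 2 (13.0%, against 5.42%). The 2 comparisons with DMSO share their control libraries, so their values are set side by side here and were not correlated.

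**Figure D3:**
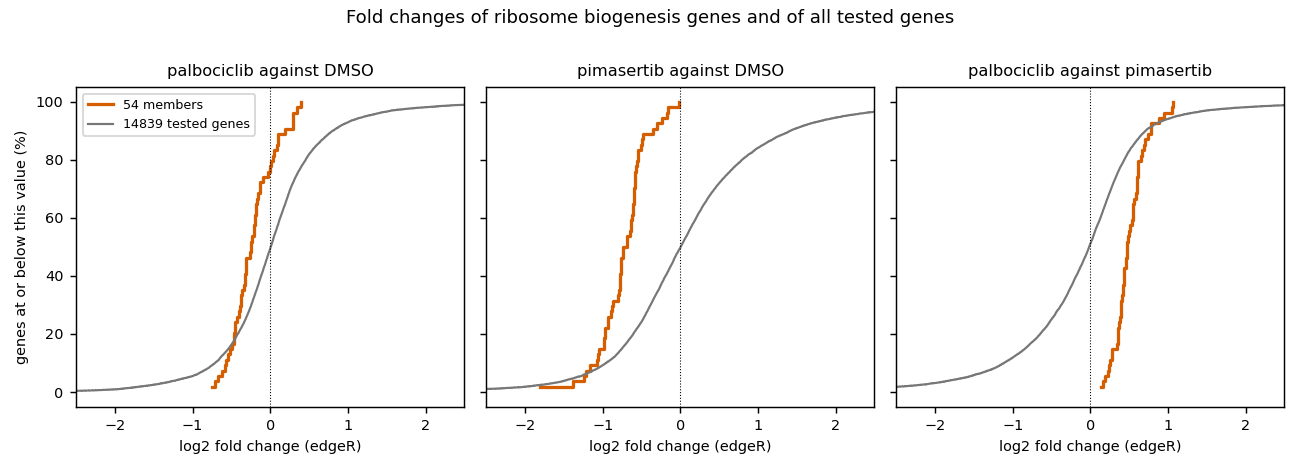
Cumulative share of genes (y axis, %) at or below each log2 fold change (x axis), for the 54 members and for all tested genes in each comparison. The member curve lies left of the curve of all genes for palbociclib over DMSO (medians −0.25 and 0.0049) and pimasertib over DMSO (−0.71 and 0.0047), and right of it for palbociclib over pimasertib (0.48 and −0.02).

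Further genes of the pathway, taken from lists of other known factors, were also lower in pimasertib in part. Of 35 other small subunit factors, 14 fell and 0 rose (median log2 fold change −0.60), and of 40 other large subunit factors 14 fell and 0 rose (median −0.61). The shares called lower were 40% and 35%, against 11.7% of all tested genes. KRR1, a processome protein, had 68.7 and 64.2 CPM in palbociclib, 26.8 and 20.4 CPM in pimasertib, and 57.9 and 55.7 CPM in DMSO. It was higher in palbociclib than in pimasertib by 1.49 on the log2 scale (adjusted p = 0.00147), with palbociclib above DMSO but not called against it. NOM1, another small subunit factor, was called in both drugs, with 49.6 and 45.6 CPM in palbociclib, 46.8 and 44.2 CPM in pimasertib, and 110 and 83.5 CPM in DMSO. Its log2 fold changes were −1.03 in palbociclib (adjusted p = 0.0249) and −1.09 in pimasertib (adjusted p = 0.0052). Among the large subunit factors SPATA5 (−1.26, adjusted p = 0.00767) and RPF1 (−0.94, adjusted p = 0.0121) had the smallest p. In pimasertib, fewer factors of both lists were called when a pimasertib library or DMSO replicate 1 was left out. Without pimasertib replicate 2, the called share of neither list exceeded that of all tested genes. Nor did the share of large subunit factors without DMSO replicate 1. In palbociclib the count of 1 small subunit factor became 0 without DMSO replicate 1, palbociclib replicate 2 or either pimasertib library, and 2 without DMSO replicate 2.

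The RNA exosome, which trims precursor RNA, had 6 of 13 subunits lowered in pimasertib (46.2%, against 11.7% of all tested genes). In palbociclib 2 were lowered (15.4%, against 2.44%). EXOSC9, a subunit of its ring, had 12.4 and 10.3 CPM in palbociclib, 19.7 and 17.0 CPM in pimasertib, and 41.2 and 32.8 CPM in DMSO, so that palbociclib was the lowest group (log2 fold change −1.71, adjusted p = 0.00307, against −1.01 with adjusted p = 0.0106 in pimasertib). EXOSC8, another subunit of the ring, had 17.8 and 14.9 CPM in palbociclib, 15.1 and 15.2 CPM in pimasertib, and 42.5 and 35.5 CPM in DMSO. It fell in both drugs, with log2 fold changes of −1.25 in palbociclib (adjusted p = 0.00986) and −1.36 in pimasertib (adjusted p = 0.00185). Of 16 genes listed for RNA polymerase III and its transcription, 5 (31.2%, against 11.7% of all tested genes) fell in pimasertib (median −0.26), led by POLR3G (−1.34, adjusted p = 0.00999). In palbociclib 0 of them were called by edgeR or DESeq2 and 1 had an unadjusted p under 0.05. Of 11 other RNA polymerase I genes, CD3EAP alone (9.09%, below the 11.7% of all tested genes) fell in pimasertib (−1.24, adjusted p = 0.0406). In palbociclib the count of exosome subunits was 1 without palbociclib replicate 2 and 3 without DMSO replicate 2. In pimasertib, fewer genes of these 3 lists were called when a pimasertib library or DMSO replicate 1 was left out. Without pimasertib replicate 2, the called share of neither polymerase list exceeded that of all tested genes.

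Genes for cytosolic ribosomal proteins had few calls when group was the only term of the model, and 1 was called lower in pimasertib without DMSO replicate 2. Of 78 cytosolic ribosomal proteins, 1 rose in pimasertib (RPL12, 0.73, adjusted p = 0.0465) and 0 fell, with a median log2 fold change of 0.04. In palbociclib edgeR called 0 of the 78 (4 at an unadjusted p under 0.05, 2 higher by DESeq2), with a median of 0.26. There 75 of the 78 were above 0 and 3 below, against 7477 above and 7353 below over all tested genes. In pimasertib 47 were above 0 and 31 below. Their summed level was 53640 and 51130 CPM in palbociclib, 50380 and 43310 CPM in pimasertib, and 45810 and 41280 CPM in DMSO. Of 74 mitochondrial ribosomal proteins, 10 (13.5%, against 11.7% of all tested genes) were called lower in pimasertib (median −0.40), a share near that of all genes, with MRPL9 at −1.37 (adjusted p = 0.00305) and MRPS2 at −1.17 (adjusted p = 0.0032). That count was 2 without pimasertib replicate 2, 6 without pimasertib replicate 1, 3 without DMSO replicate 1 and 18 without DMSO replicate 2. Of 12 host genes of small nucleolar RNAs, EPB41L4A-AS1 (1.52, adjusted p = 0.00255) and SNHG8 (0.75, adjusted p = 0.0339) rose in pimasertib, and EPB41L4A-AS1 also rose in palbociclib (1.19, adjusted p = 0.0305). The shares were 16.7% in pimasertib, against 11.1% of all tested genes called higher, and 8.33% in palbociclib, against 1.11%. With a library left out, host genes called higher in palbociclib numbered 0, except for 1 without palbociclib replicate 1, and 2 were called lower without palbociclib replicate 2. In the same fits, cytosolic ribosomal proteins called higher in pimasertib numbered 0, except for 1 without palbociclib replicate 2. Host genes called higher in pimasertib numbered 1 without DMSO replicate 1 or either pimasertib library. Proliferation genes fell in both drugs. All 16 mitotic genes tested were called lower in each (median −1.66 in palbociclib and −1.36 in pimasertib), although 8 were in pimasertib without its replicate 2. MKI67 had 195 and 141 CPM in palbociclib, 225 and 222 CPM in pimasertib, and 1171 and 815 CPM in DMSO, and their part in the ribosome biogenesis values was not tested.

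**Figure D4:**
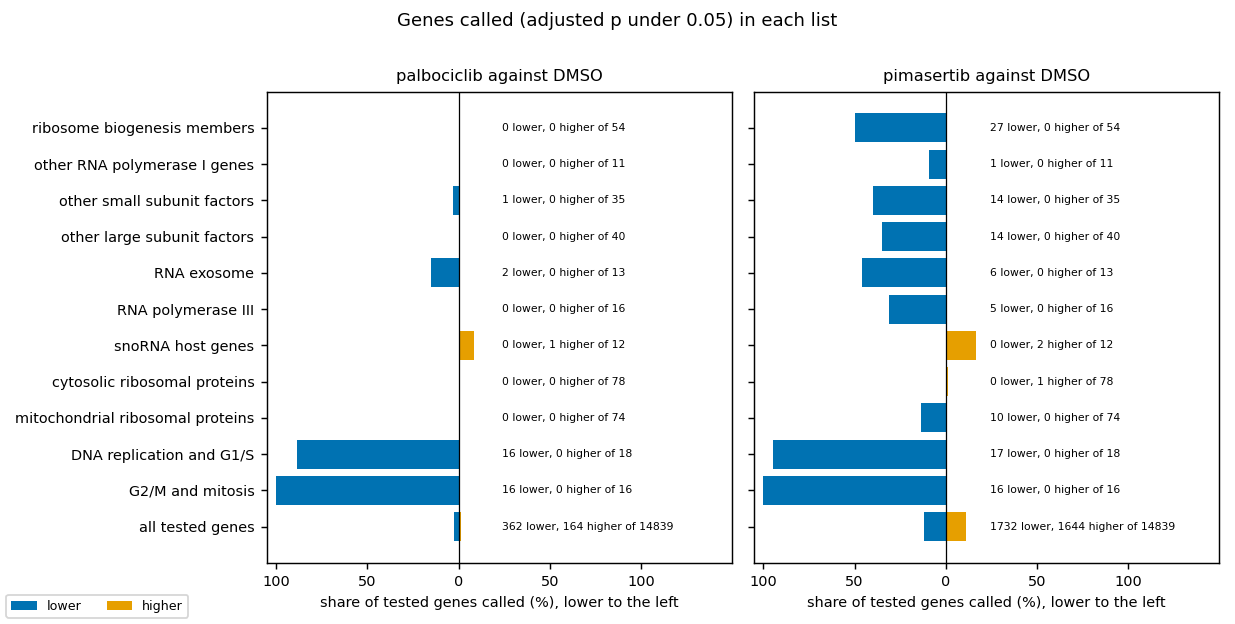
Share of tested genes in each list (rows) called lower (blue, to the left) or higher (orange, to the right) than DMSO, for palbociclib (left panel) and pimasertib (right panel), with the counts printed beside the bars. In pimasertib 27 of the 54 members are called lower, against 14 of 35 other small subunit factors and 0 of 78 cytosolic ribosomal proteins, and mitotic genes are called in both panels.

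MYC, the transcription factor known to drive ribosome biogenesis genes through the E-box CACGTG, had 25.5 and 33.4 CPM in palbociclib, 16.7 and 19.8 CPM in pimasertib, and 21.4 and 19.4 CPM in DMSO. Its palbociclib libraries were the highest and its pimasertib libraries overlapped DMSO, with log2 fold changes of 0.53 in palbociclib (SE 0.23, adjusted p = 0.247) and −0.16 in pimasertib (SE 0.23, adjusted p = 0.643). MAX, its partner, was called in neither drug. CCND1 (cyclin D1), a gene that ERK signalling is known to raise, had 2470 and 1561 CPM in palbociclib, 215 and 162 CPM in pimasertib, and 1468 and 900 CPM in DMSO. It fell in pimasertib (log2 fold change −2.65, adjusted p = 5.74e-04), with the pimasertib libraries far below the rest, and was not called in palbociclib (adjusted p = 0.245). DUSP6, an ERK-induced phosphatase, and MYCL1, a relative of MYC, were below the filter on low counts, each at no more than 0.473 CPM in any library.

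Since so many members moved together, their promoters were searched for short motifs, on both strands, from 250 bases before to 50 after the most upstream RefSeq start of each gene (GRCh38.p14). Promoters were matched for 46 of 54 members and for 9671 of the 14839 tested genes, over which the shares of tested genes below are taken. The E-box CACGTG was found in 17 of the 46 (37.0%), in 10.2% of the promoters of tested genes and in 7.4% of all promoters of this length. The ETS core CCGGAAG was found in 16 (34.8%), against 18.6% of tested and 10.6% of all promoters, and the E-box variant CACGCG in 13 (28.3%), against 18.3% and 11.4%. An E2F-type motif, TTTNNCGC, was found in 4 members (8.7%, against 10.6% of tested genes), and an NRF1-type palindrome of 10 bases in 4 (8.7%, against 2.31%). The E-box reads the same on both strands, and matches of different motifs could share bases. A match is a description of the letters, not of binding.

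More E-boxes of the members lay after the start of transcription than before it. Of 19 E-boxes in 17 members, 11 lay within the 50 bases after the start, 7 upstream and 1 across it. A downstream E-box was present in 11 of 46 members (23.9%), against 1.14% of the promoters of tested genes, in a window chosen after the positions had been seen. Upstream of the start alone, the share was 13.0% in members and 9.07% in tested genes. The E-boxes of the members that fell in pimasertib stand in capitals with their flanks, from RefSeq (GRCh38.p14), 5′ to 3′ along the gene's own strand. Of the 17 members with an E-box 11 were called in pimasertib, with a median log2 fold change of −0.79, and of the 29 without one 12 were called, with a median of −0.64. LYAR, the member with the largest change, held no E-box in this window.
BYSL (downstream, chr6:41921517-41921542, plus strand): cttcagtcccCACGTGcgatccttcc
EBNA1BP2 (upstream, chr1:43172792-43172817, minus strand): tattgttggcCACGTGggatcgaaga
FBL (downstream, chr19:39846358-39846383, minus strand): cgctcttttcCACGTGcgaaagcccc
IMP4 (upstream, chr2:130342684-130342709, plus strand): ggtcctaagtCACGTGtgacattctg
IMP4 (downstream, chr2:130342902-130342927, plus strand): ctcccggaccCACGTGgaagcggcac
MRTO4 (downstream, chr1:19251809-19251834, plus strand): tcttccgccgCACGTGgattcagcgc
NOP14 (downstream, chr4:2963376-2963401, minus strand): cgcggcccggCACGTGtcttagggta
PES1 (downstream, chr22:30591882-30591907, minus strand): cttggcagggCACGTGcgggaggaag
RRP9 (across the start, chr3:51941894-51941919, minus strand): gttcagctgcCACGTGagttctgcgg
UTP14A (upstream, chrX:129905914-129905938, plus strand): accttgggcCACGTGgaaaccaggg
UTP20 (upstream, chr12:101280085-101280110, plus strand): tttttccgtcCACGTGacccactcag
WDR43 (downstream, chr2:28894660-28894685, plus strand): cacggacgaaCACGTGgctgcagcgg

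**Figure D5:**
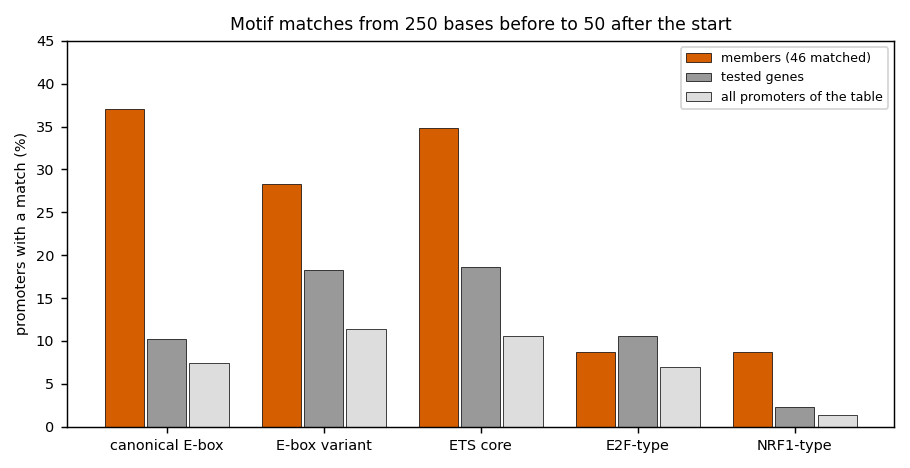
Share of promoters (y axis, %) with at least 1 match of each motif (x axis) from 250 bases before to 50 after the start, for the 46 matched members, all tested genes and all promoters. The E-box bars read 37.0%, 10.2% and 7.4%, and the ETS core bars 34.8%, 18.6% and 10.6%.

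Longer stretches show how the motifs are laid out in the members with the most matches of the ETS core and the E-box letters. FBL and WDR3 fell in pimasertib, as did DDX56 and NOC2L, whereas POLR1C and NOP10 were not called. Ties in the number of matches went to the larger change in pimasertib, so the calls of FBL, NOC2L and WDR3 follow in part from this choice. The bases run 5′ to 3′ along the gene's strand, upstream of the start, from RefSeq (GRCh38.p14), with capitals for the ETS core and both E-box forms on either strand. DDX56 and POLR1C each held 3 ETS cores, 2 of which overlap in POLR1C. NOP10 held 2 E-boxes, the second of them 11 bases before the start. Of the 16 members with an ETS core 7 were called in pimasertib, with a median log2 fold change of −0.67, and of the 30 without one 16 were called, with a median of −0.75.
DDX56 (chr7:44573909-44574158, minus strand): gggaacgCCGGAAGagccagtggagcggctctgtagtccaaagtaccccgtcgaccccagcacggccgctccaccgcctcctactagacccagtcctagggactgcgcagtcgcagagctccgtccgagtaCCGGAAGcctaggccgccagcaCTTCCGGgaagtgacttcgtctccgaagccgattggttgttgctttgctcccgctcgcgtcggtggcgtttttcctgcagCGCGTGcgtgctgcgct
POLR1C (chr6:43516865-43517085, plus strand): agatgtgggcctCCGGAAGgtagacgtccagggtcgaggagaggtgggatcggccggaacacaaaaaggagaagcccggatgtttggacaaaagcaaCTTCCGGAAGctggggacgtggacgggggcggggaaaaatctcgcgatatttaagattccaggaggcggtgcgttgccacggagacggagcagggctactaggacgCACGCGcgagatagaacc
NOP10 (chr15:34343137-34343318, minus strand): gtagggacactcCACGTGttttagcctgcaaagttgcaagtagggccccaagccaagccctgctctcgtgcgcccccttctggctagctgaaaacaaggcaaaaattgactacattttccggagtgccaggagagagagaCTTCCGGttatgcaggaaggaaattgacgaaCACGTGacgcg
FBL (chr19:39846451-39846584, minus strand): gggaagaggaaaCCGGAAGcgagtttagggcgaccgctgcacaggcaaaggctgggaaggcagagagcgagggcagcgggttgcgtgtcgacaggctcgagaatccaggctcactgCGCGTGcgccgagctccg
NOC2L (chr1:959257-959429, minus strand): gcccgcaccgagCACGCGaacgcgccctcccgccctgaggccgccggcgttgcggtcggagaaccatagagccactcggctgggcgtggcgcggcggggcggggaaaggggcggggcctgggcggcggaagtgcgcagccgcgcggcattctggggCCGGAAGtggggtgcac
WDR3 (chr1:117929698-117929738, plus strand): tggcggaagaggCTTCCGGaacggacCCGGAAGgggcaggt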

How the data were processed

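The labels give RNA-seq of HT-1080 cells, 2 libraries in each of 3 groups. Per the submitters' processing notes, CASAVA, STAR 2.5, HTSeq 0.6.1 and DESeq2 were used with the builds hg19 and GRCh37; their order and settings are not given in the sources used here. The authors deposited raw counts per gene for each drug and DMSO, and FPKM values, which were used only for levels between genes. The deposited log2 fold changes and p-values, per the file headers, belong to the authors' own comparisons, and they were used to count members called by the authors.

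The tables (23914 and 24931 genes, 22559 in both) held identical DMSO counts. Genes missing from either table had no reads in DMSO and were given 0 there. Of the columns of per-sample values, 0 were left without a sample. edgeR 4.0.16 (R 4.3.3) was run on these counts (TMM scaling, filterByExpr with a minimum count of 10 and total of 15, glmQLFit robust, glmQLFTest, two-sided), in 1 model of all 6 libraries and 3 groups, with Benjamini-Hochberg adjustment over 14839 genes and a threshold of 0.05. CPM are counts over TMM-scaled totals. SE is the absolute log2 fold change over the square root of F. DESeq2 1.42.0 (limma 3.58.1 was loaded with edgeR), other scalings and filters, the drug's and DMSO libraries alone, a replicate block and leaving out each library were alternatives. The test was tried on simulated data.

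The members, role groups, other gene lists, tests and motifs were chosen with earlier results of these data known. All 54 members could be named. Values per library were given for members called in the comparisons that involve palbociclib and, in each role, up to 3 called members with the largest change in pimasertib. Other members printed with values were chosen after these had been seen. In other lists, up to 4 called genes with the smallest p per direction could be named, as were MYC, MYCN, MYCL, MAX, MKI67, CCND1 and DUSP6; MYCL was found under its older symbol MYCL1, and MYCN was not analysed here. Promoters came from a RefSeq table (GRCh38.p14). Those of NOP58, DCAF13, NOLC1, RRP12, RRS1, DDX18, RRP1B and BOP1 were not matched. Promoter stretches were shown for the 6 members with most motif matches upstream of the start, ties going to the larger change in pimasertib.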

Additional observations from a re-analysis of the deposited data

How the results depend on the processing

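Counts of called members depended on single libraries and on whether the replicate number was a term of the model. Leaving out each library in turn gave 0 to 2 members lower in palbociclib against DMSO, 1 to 36 lower in pimasertib against DMSO and 0 to 7 higher in palbociclib against pimasertib. The 27 members lower in pimasertib numbered 24 to 28 under the other scalings and filters, under DESeq2 and with that drug's and DMSO libraries alone. These were 44.4% to 51.9% of the members, against 6.92% to 13.7% of all genes in the same fits. For palbociclib against pimasertib, 2 members higher became 5 under DESeq2 (9.26%, against 5.89% of all genes) and 7 with no filter on low counts (13.0%, against 3.55%). A stricter filter of 50 counts gave 1 (1.85%, against 4.95%), and library totals only gave 3 (5.56%, against 4.44%). The 4 libraries of the 2 drugs alone gave 6 (11.1%, against 5.63%). The causes were not tested.

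The replicate numbers are shared across groups, but nothing says that a number marks a shared culture or day. With the replicate number as a block, 16 members were lower in palbociclib and 48 in pimasertib, against DMSO, and 43 were higher in palbociclib than in pimasertib, while over all genes 11.3% were lower in palbociclib and 23.6% in pimasertib, against DMSO, and 15.6% higher in palbociclib than in pimasertib. Of 78 cytosolic ribosomal proteins, the same fit called 16 higher in palbociclib, where 8.65% of all genes were called higher. In pimasertib it called 11 of the 78 higher and 5 lower, against 20.6% and 23.6% of all genes. Same-numbered libraries deviated together over all genes (correlations of 0.397 for palbociclib with DMSO, 0.351 for pimasertib with DMSO, 0.345 between the drugs). Within replicate numbers 1 and 2 the members' median log2 ratios, an alternative added after seeing the data, were −0.32 and −0.19 for palbociclib and −0.79 and −0.69 for pimasertib over DMSO, and 0.53 and 0.44 for palbociclib over pimasertib.

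Directions of single members with values near 0 turned. DCAF13 in pimasertib, at −0.02, was 0.0044 with RLE factors, 0.0138 with totals only, 0.0045 with DESeq2, 0.0193 with no filter, 0.0298 with the stricter filter and 0.0198 with 4 libraries. With a library left out, in pimasertib against DMSO, DCAF13 ranged from −0.2329 to 0.1687, RRN3 from −0.3886 to 0.0547 and PPAN from −0.6462 to 0.2125, and UTP15 in palbociclib over pimasertib ranged from −0.1024 to 0.4425. Of the 46 matched members, 6 held an E-box when the search stopped at the start, against 17 in the full window.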
